A study of Mus musculus with 8 samples.

Results

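The genes described here are the mouse zinc-finger genes Zfp900 to Zfp999, chosen by name: protein-coding genes of the mm10 (GRCm38.p6) RefSeq annotation whose symbol is Zfp9 followed by exactly 2 more digits. There were 62 such genes among 21887 protein-coding genes on the chromosomes covered by the peak lists, from Zfp930 to Zfp996, on 13 chromosomes. The rule uses names alone, although the group was taken up with earlier results of these data known. Their bodies had a median length of 23.3 kb, from 6.79 kb for Zfp954 to 479 kb for Zfp993, beside 17.2 kb over all protein-coding genes. The members share sequence and neighbourhood, so they are not independent observations.

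Chromatin immunoprecipitation followed by sequencing was done in C57BL/6 mouse embryonic fibroblasts, primary connective-tissue cells taken from E15.5 embryos and used at passages 2 to 4. The cells were of 2 genotypes, Hmga2 wt and Hmga2 Ko, with antibodies to HMGA2, to the serine-phosphorylated histone variant H2AXS139ph (γ-H2AX) and to the kinase ATM, and an input for each genotype. Every peak count, density and score below comes from the 3 peak lists of the Hmga2 wt cells. Promoter-region counts come from the authors' γ-H2AX and ATM promoter lists of the same cells, and sequence values from RefSeq. There was 1 library per antibody, so no value has replicate error and no test between conditions was possible. The Hmga2 Ko libraries and the inputs were not analysed here. The HMGA2 list held 152834 peaks, the γ-H2AX list 124947 and the ATM list 119570. Each peak carries the authors' score, which is 10 times the negative log10 of the peak caller's p-value and was never below the threshold of 20. The read depth of the libraries is not given in the sources used here. The list medians of 23.8 for HMGA2 and 23.6 for both γ-H2AX and ATM lay close to that threshold. No expression was measured, so the fibroblast label could not be checked against marker genes.

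Many genes of this series code for KRAB zinc-finger proteins, which bind DNA through tandem zinc fingers, often within transposable elements. Their KRAB domain recruits TRIM28, which brings in the methyltransferase SETDB1 and HP1 proteins so that the bound chromatin carries H3K9 methylation. Many such genes arose by tandem duplication, and some stand in rodent arrays with near-identical copies, where short reads from one copy may align to another. HMGA2 is an AT-hook protein that binds the minor groove of AT-rich DNA and bends it. ATM is a kinase of the DNA double-strand break response, and γ-H2AX is the phosphorylated histone that it and related kinases make. The questions were where the 3 antibodies had peaks at these genes, and whether members in arrays differed from single ones.

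The promoters show how alike some members are. The sequences are from RefSeq, build GRCm38.p6, 5′ to 3′ on the gene's own strand. They run from 250 bases before a RefSeq start of the gene to 50 bases after it. In the counts below, start and end mean the outer edges of the annotated span, which can lie elsewhere. At Zfp936, Zfp976, Zfp981 and Zfp984 the span edge was more than 1 kb from the promoter. Entries were found for 55 of the 62 members, with 63 promoters in all. The following 3 belong to the chromosome 2 array and were chosen because they are nearly the same and had no peak of any antibody in the gene or within 5 kb of it. The Zfp966 promoter was identical in all 300 bases to that of Zfp967. The promoters of Zfp968 and Zfp973 differed by 1 base, shown as the single capital.
Zfp966 promoter, chr2:175931051-175931350, minus strand: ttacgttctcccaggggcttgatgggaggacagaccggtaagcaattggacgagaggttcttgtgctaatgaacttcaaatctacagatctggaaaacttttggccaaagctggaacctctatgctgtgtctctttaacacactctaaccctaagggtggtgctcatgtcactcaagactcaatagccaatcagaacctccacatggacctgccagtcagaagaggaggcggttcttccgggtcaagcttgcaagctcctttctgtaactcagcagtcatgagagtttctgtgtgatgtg
Zfp968 promoter, chr2:175372186-175372485, plus strand: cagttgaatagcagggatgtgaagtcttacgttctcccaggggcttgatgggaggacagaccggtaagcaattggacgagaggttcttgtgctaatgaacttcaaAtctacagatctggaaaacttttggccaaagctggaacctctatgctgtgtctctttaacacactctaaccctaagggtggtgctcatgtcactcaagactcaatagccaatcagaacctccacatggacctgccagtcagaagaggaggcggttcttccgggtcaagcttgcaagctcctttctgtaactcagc
Zfp973 promoter, chr2:176670272-176670571, plus strand: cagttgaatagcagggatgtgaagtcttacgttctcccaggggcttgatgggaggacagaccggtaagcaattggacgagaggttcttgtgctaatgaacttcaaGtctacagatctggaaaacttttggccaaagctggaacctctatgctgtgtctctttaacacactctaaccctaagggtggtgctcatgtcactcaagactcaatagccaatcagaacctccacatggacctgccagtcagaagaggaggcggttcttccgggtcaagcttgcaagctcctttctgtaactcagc

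The next promoters were chosen from those with a γ-H2AX peak over part of them, which is in capitals. That of Zfp950, with 55 bases under a γ-H2AX peak scoring 23.6, is not shown. The Zfp971 promoter differed by 9 edits from that of Zfp965, which had no peak, and 135 of its bases lay under a γ-H2AX peak with a score of 26.6. In Zfp932, known as a repressor of endogenous retroviruses, 194 bases of the upstream promoter lay under a γ-H2AX peak scoring 45. In Zfp954 the covered stretch was 153 bases, with a score of 23.4.
Zfp971 promoter, chr2:178023034-178023333, plus strand: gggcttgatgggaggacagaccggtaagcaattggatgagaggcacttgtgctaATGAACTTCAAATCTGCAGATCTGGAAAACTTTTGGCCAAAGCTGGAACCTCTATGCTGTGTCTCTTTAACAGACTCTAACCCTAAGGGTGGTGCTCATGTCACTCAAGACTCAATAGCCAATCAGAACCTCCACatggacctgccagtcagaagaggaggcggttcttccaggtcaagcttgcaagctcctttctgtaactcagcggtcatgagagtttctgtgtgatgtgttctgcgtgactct
Zfp932 promoter, chr5:109996260-109996559, plus strand: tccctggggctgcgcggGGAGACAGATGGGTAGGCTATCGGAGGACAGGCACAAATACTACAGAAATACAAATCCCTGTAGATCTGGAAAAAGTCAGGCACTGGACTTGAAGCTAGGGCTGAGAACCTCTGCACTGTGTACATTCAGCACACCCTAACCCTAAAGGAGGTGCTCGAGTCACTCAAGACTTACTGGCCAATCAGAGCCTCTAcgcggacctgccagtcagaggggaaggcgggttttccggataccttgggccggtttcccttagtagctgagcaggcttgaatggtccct
Zfp954 promoter, chr7:7121427-7121726, minus strand: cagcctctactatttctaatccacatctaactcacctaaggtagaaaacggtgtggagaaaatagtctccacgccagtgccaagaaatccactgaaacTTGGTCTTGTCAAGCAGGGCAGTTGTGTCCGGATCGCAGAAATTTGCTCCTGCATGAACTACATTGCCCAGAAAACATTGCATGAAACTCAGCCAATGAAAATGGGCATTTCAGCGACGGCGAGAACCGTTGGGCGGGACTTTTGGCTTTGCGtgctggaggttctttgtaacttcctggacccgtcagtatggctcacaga

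ATM peaks lay over the capitals of the following 3 promoters, with scores of 23.8 at Zfp983 (98 bases), 26.9 at Zfp984 (171 bases) and 49.5 at Zfp993 (192 bases).
Zfp983 promoter, chr17:21650361-21650660, plus strand: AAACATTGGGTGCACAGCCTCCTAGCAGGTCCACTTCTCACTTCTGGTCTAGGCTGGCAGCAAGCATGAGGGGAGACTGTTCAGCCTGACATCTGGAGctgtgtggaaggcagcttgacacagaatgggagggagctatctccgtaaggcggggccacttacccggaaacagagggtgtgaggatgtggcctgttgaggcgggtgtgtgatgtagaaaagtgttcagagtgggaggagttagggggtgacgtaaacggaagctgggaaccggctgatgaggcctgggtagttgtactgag
Zfp984 promoter, chr4:147809739-147810038, minus strand: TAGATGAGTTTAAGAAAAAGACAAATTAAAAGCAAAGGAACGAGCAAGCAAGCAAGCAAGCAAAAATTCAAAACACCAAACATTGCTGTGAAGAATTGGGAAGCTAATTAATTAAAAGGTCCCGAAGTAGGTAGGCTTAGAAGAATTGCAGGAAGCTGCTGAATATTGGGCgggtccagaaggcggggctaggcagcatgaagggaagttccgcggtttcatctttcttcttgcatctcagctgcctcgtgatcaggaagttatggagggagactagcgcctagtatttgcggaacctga
Zfp993 promoter, chr4:146512599-146512898, plus strand: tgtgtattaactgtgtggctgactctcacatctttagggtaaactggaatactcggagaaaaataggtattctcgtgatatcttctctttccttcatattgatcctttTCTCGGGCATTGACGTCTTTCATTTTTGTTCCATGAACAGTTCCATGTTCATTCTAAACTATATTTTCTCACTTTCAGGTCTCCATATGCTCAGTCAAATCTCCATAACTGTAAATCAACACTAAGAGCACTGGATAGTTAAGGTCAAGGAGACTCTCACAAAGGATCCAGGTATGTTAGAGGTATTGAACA
Peaks of 2 antibodies met at the Zfp993 promoter. An HMGA2 peak scoring 23.3 covered the other 113 bases at its 5′ side, and the HMGA2 and ATM peaks shared 5 bases.

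A peak within 1 kb of either gene end was found at 17 of 62 members (27.4%) for HMGA2, where 17.9% of all protein-coding genes had one. For γ-H2AX it was 18 members (29%) beside 23.3% of all genes, and for ATM 14 members (22.6%) beside 16.1%. The 305 other genes named Zfp and digits lay at 19.7%, 30.8% and 22.3%. The members thus stood above the other Zfp genes for HMGA2, and at about their level for γ-H2AX and ATM. Without the 14 members of the chromosome 4 array, the remaining 48 stood at 20.8% (10 members, HMGA2), 25% (12, γ-H2AX) and 14.6% (7, ATM), so most of the margin over all genes came with that array. These 48 were near the other Zfp genes for HMGA2 and below them for γ-H2AX and ATM. No end peak of any antibody was found at 30 members (48.4%, beside 55% of all genes).

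For higher-scoring peaks the shares were smaller. An HMGA2 peak scoring 30 or more lay within 1 kb of an end at 8 members (12.9%, beside 2.41% of all genes and 3.61% of the other Zfp genes). These were Zfp932, Zfp946, Zfp974, Zfp979, Zfp980, Zfp981, Zfp985 and Zfp992, of which 5 stand in the chromosome 4 array; outside that array the share was 3 of 48 (6.25%). For γ-H2AX the members were Zfp930, Zfp932, Zfp985 and Zfp992 (6.45%, beside 3.3%), and for ATM they were Zfp984, Zfp991, Zfp993 and Zfp996 (6.45%, beside 1.81%). Outside the chromosome 4 array 2 of 48 remained for γ-H2AX (4.17%) and 1 for ATM (2.08%, Zfp996), both near the shares of all genes. Within 5 kb of an end a peak of that score lay at 14 members for HMGA2 (22.6%, beside 9.43%), at 13 for γ-H2AX (21%, beside 11%) and at 10 for ATM (16.1%, beside 7.33%). In the body it was 22 members (35.5%, beside 17.2%), 17 (27.4%, beside 17.5%) and 13 (21%, beside 14.6%). Without the chromosome 4 array the shares within 5 kb were 12.5% (HMGA2), 18.8% (γ-H2AX) and 6.25% (ATM), and those in the body 20.8%, 14.6% and 8.33%. ATM was then below all genes in both places, and γ-H2AX was below them in the body. For HMGA2 peaks of any score, other windows also gave shares above all genes. These were 9 members within 500 bp (14.5%, beside 9.8%) and 27 within 2 kb (43.5%, beside 30.5%). ATM peaks of any score lay within 2 kb at 26 members (41.9%, beside 28.3%).

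Gene bodies held an HMGA2 peak in 48 members (77.4%, beside 49.4% of all genes), a γ-H2AX peak in 45 (72.6%, beside 55.2%) and an ATM peak in 42 (67.7%, beside 51.7%). Of the 48 members outside the chromosome 4 array, 34, 31 and 29 had one, still above the shares of all genes. Members are longer than the typical gene and these shares are not corrected for length. Within 5 kb of an end, where the window depends less on gene length but still shrinks in genes under 10 kb, the counts were 45 (72.6%, beside 52.3%), 41 (66.1%, beside 58.5%) and 38 (61.3%, beside 52.3%). Outside the chromosome 4 array they were 32, 28 and 25 of 48, so γ-H2AX and ATM stood at about the shares of all genes there. The body with 5 kb on either side, called the locus here, held all 3 antibodies in 38 members (61.3%, beside 43.6%). It held none in 6 members (9.68%, beside 10.5%), namely Zfp939, Zfp965, Zfp966, Zfp967, Zfp968 and Zfp973, and all of these but Zfp939 stand in the chromosome 2 array. The median member had 2 peaks of each antibody in its locus, the lowest had 0 of each, and the highest had 49 HMGA2, 34 γ-H2AX and 56 ATM peaks. Per 100 kb of locus the medians were 7.3, 6.22 and 5.16 peaks, beside 3.94, 4.74 and 3.89 over all genes. The other Zfp genes had medians of 4.57, 5.5 and 4.78, nearer the members for γ-H2AX and ATM than for HMGA2.

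**Figure D1:**
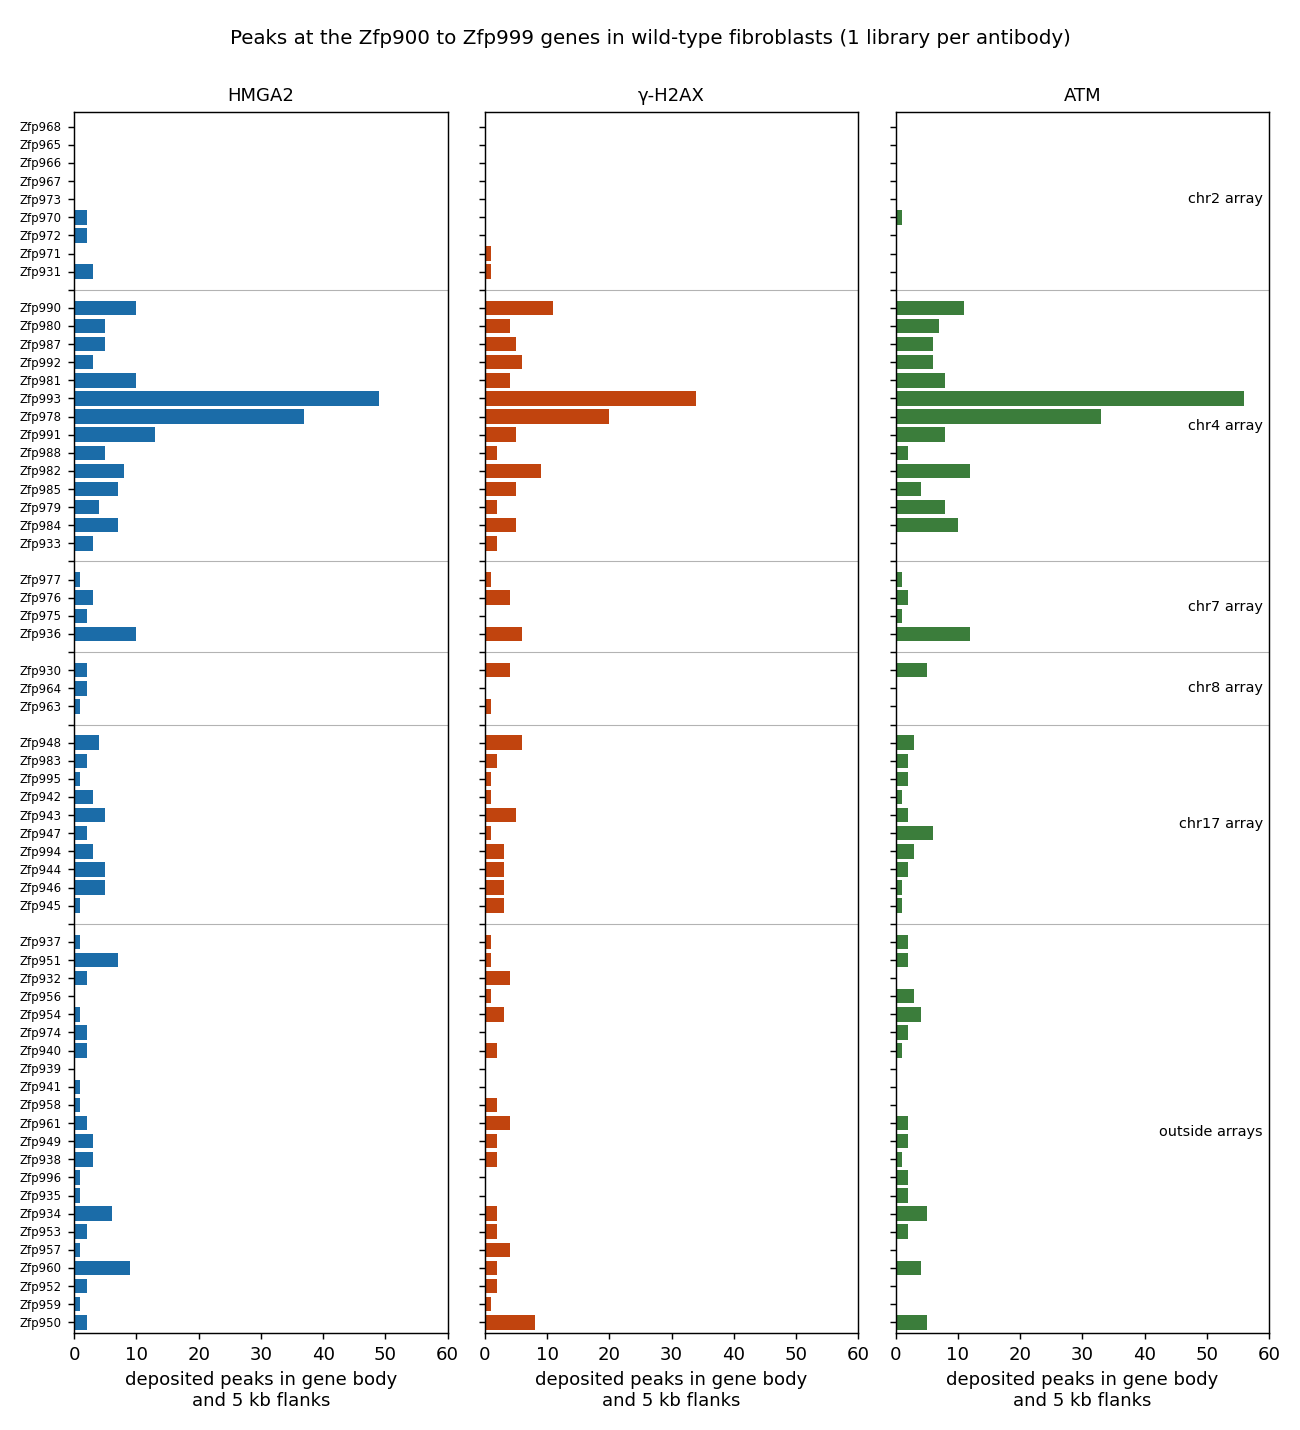
Number of deposited peaks in the gene body and 5 kb flanks of each of the 62 members (1 bar per gene, x axis in peaks, 1 panel per antibody), ordered by array and position. Most members have between 0 and 10 peaks, Zfp993 and Zfp978 in the chromosome 4 array reach 49 and 37 for HMGA2, and the first 5 members of the chromosome 2 array have none.

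The 62 members were divided in 2 ways. By the nearest neighbour, 44 were clustered, with another Zfp gene within 100 kb, and 18 were single. By position, 40 stood in 5 arrays of at least 3 members with gaps of no more than 1 Mb: 14 on chromosome 4, 10 on chromosome 17, 9 on chromosome 2, 4 on chromosome 7 and 3 on chromosome 8. Of the 18 single members, 9 still lay inside one of these arrays, and 9 were isolated by both rules (Zfp938, Zfp941, Zfp949, Zfp950, Zfp951, Zfp957, Zfp958, Zfp959 and Zfp996). The arrays were defined after the data had been seen.

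Clustered members had an HMGA2 peak within 1 kb of an end in 15 of 44 cases (34.1%), and single members in 2 of 18 (11.1%), Zfp951 and Zfp980, beside 17.9% of all genes. For γ-H2AX the shares were 29.5% and 27.8% (beside 23.3%), and for ATM 22.7% and 22.2% (beside 16.1%). The shares were close together for γ-H2AX and ATM, and the HMGA2 share of single members rests on 2 genes. Peak density over the merged loci of clustered members was 91.9 peaks per Mb for HMGA2 (95% exact Poisson interval 79.5 to 106), 68 for γ-H2AX (57.4 to 80) and 88.6 for ATM (76.4 to 102). Over the loci of single members it was 72.2 (53.6 to 95.2), 69.3 (51.1 to 91.9) and 70.7 (52.3 to 93.5), and all 3 pairs of intervals overlap. These intervals cover counting error only. Whether they overlapped depended on the neighbour distance. With 250 kb the clustered and single densities were 94.5 (82.5 to 108) and 48.5 (30.4 to 73.4) for HMGA2, and 92.8 (80.9 to 106) and 39.7 (23.5 to 62.7) for ATM, and neither pair of intervals overlaps. At that distance Zfp936, Zfp938, Zfp967, Zfp973, Zfp980 and Zfp990 passed from single to clustered. In that order they held 10, 3, 0, 0, 5 and 10 of the 50 HMGA2 peaks of single members. For ATM they held 12, 1, 0, 0, 7 and 11 of 49, so the separation rests on few loci. With 50 kb the ATM values were 93.9 (80.9 to 108) and 61.2 (45.6 to 80.5), also apart, while the HMGA2 intervals overlap. The γ-H2AX intervals overlap at each of these distances. With neighbours sought among Zfp900 to Zfp999 alone, the HMGA2 densities were 95 (81.2 to 111) and 73.8 (58.3 to 92.1). For ATM they were 92.2 (78.6 to 107) and 70.9 (55.8 to 88.9), and both pairs overlap. Without the chromosome 4 array, at 100 kb, clustered and single members stood at 70.9 (55.4 to 89.2) and 57.2 (39.9 to 79.6) for HMGA2. For ATM they stood at 52.2 (39.1 to 68.2) and 50.7 (34.4 to 72), and both pairs of intervals overlap. At the 9 isolated members the densities were 54 (33 to 83.3) for HMGA2, 54 (33 to 83.3) for γ-H2AX and 32.4 (16.7 to 56.5) for ATM, beside 58.5, 55.1 and 46.2 over the loci of all protein-coding genes. Isolated members were thus within counting error of the whole gene set for each antibody.

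The arrays differed from one another. Member loci of the chromosome 4 array had 116 HMGA2 peaks per Mb (97.6 to 137), 86.9 γ-H2AX peaks (71 to 105) and 129 ATM peaks (109 to 151). Those of the chromosome 2 array had 33.2 (13.3 to 68.3), 9.48 (1.15 to 34.2) and 4.74 (0.12 to 26.4). The intervals of these arrays do not overlap for any antibody. All 48 members outside the chromosome 4 array together had 65.7 (53.9 to 79.4), 54.7 (43.9 to 67.3) and 51.6 (41.2 to 63.9), and each of these intervals holds the value over all genes.

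**Figure D2:**
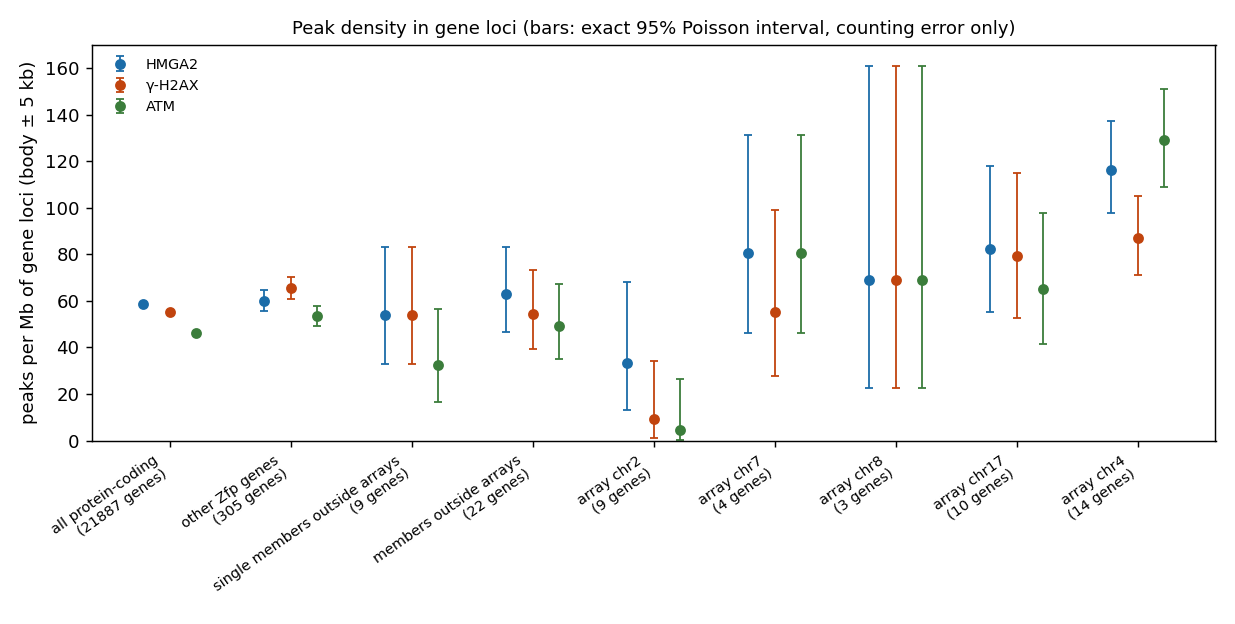
Peaks per Mb of gene loci (body and 5 kb flanks) for all protein-coding genes, other Zfp genes and groups of members (points; bars are exact 95% Poisson intervals for counting error). The chromosome 4 array is highest, at 116, 86.9 and 129 peaks per Mb, and the chromosome 2 array lowest, at 33.2, 9.48 and 4.74.

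The chromosome 4 array spans chr4:145510759-147849126 (2.34 Mb), from Zfp990 to Zfp933, and 14 of its 18 protein-coding genes are members. With 5 kb on either side it held 246 HMGA2, 170 γ-H2AX and 255 ATM peaks. In that order this made 105, 72.4 and 109 peaks per Mb, against 57.9, 47.6 and 43.8 on the rest of the chromosome. The ratios were 1.81, 1.52 and 2.48, so ATM was raised most. Among the 154 bins of 1 Mb on chromosome 4 that hold peaks, the bins starting at 145, 146 and 147 Mb had 92, 93 and 104 ATM peaks, the ranks 3, 2 and 1 from the top, where the median bin had 47. For HMGA2 the same bins had 87, 77 and 112 peaks (median 58) and for γ-H2AX 69, 65 and 69 (median 48), with other bins of the chromosome above them in every case.

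**Figure D3:**
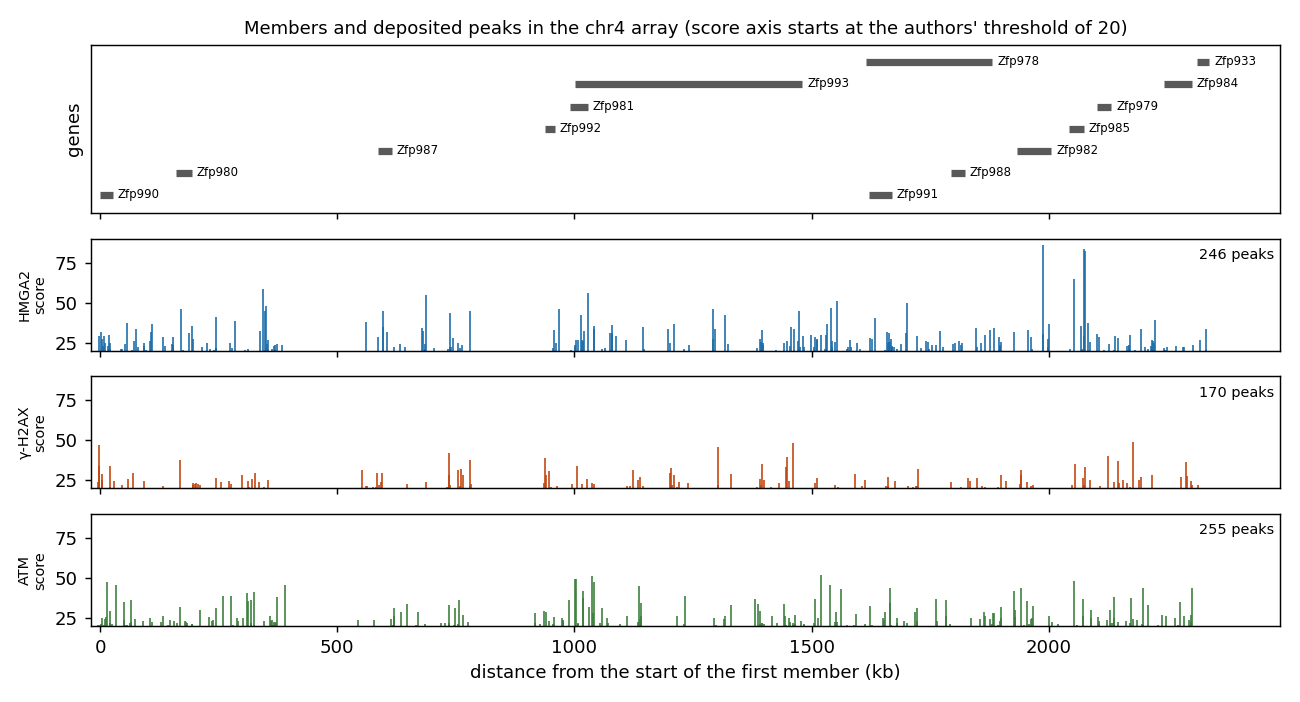
Members of the chromosome 4 array (grey bars, x axis in kb from the first member's start) and the score of every deposited peak in the span (vertical lines from the threshold of 20, 1 panel per antibody). Peaks are spread along the span apart from gaps of up to 155 kb without any, and the HMGA2 peaks above 80 stand in Zfp982 and at the end of Zfp985.

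Peaks in this array were wide. HMGA2 peaks had a median width of 254 bp, γ-H2AX peaks of 213 bp and ATM peaks of 243 bp, against 170, 168 and 168 bp on the rest of the chromosome. A width of 250 bp or more was reached by 52.4%, 37.1% and 47.8% of the array's peaks, against 4.25%, 3.22% and 2.92% elsewhere on chromosome 4. In density, wide peaks stood at 54.9, 26.8 and 52 per Mb in the array against 2.46, 1.53 and 1.28 outside it. Peaks narrower than 250 bp stood at 49.8, 45.6 and 56.6 per Mb against 55.5, 46.1 and 42.5. The ratios for the narrow peaks were thus 0.898 (HMGA2), 0.988 (γ-H2AX) and 1.33 (ATM). A score of 30 or more was also more frequent in the array, in 28%, 15.9% and 23.5% of its peaks against 11.4%, 10.5% and 9.85% elsewhere on the chromosome, so a division by width is not independent of the excess. The 3 lists covered 3.23%, 1.92% and 3.19% of the span, against 1.02%, 0.824% and 0.75% of the rest of the chromosome. Wide peaks moved with all 3 antibodies in this array of similar genes, and the part of read mapping in this was not tested.

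**Figure D4:**
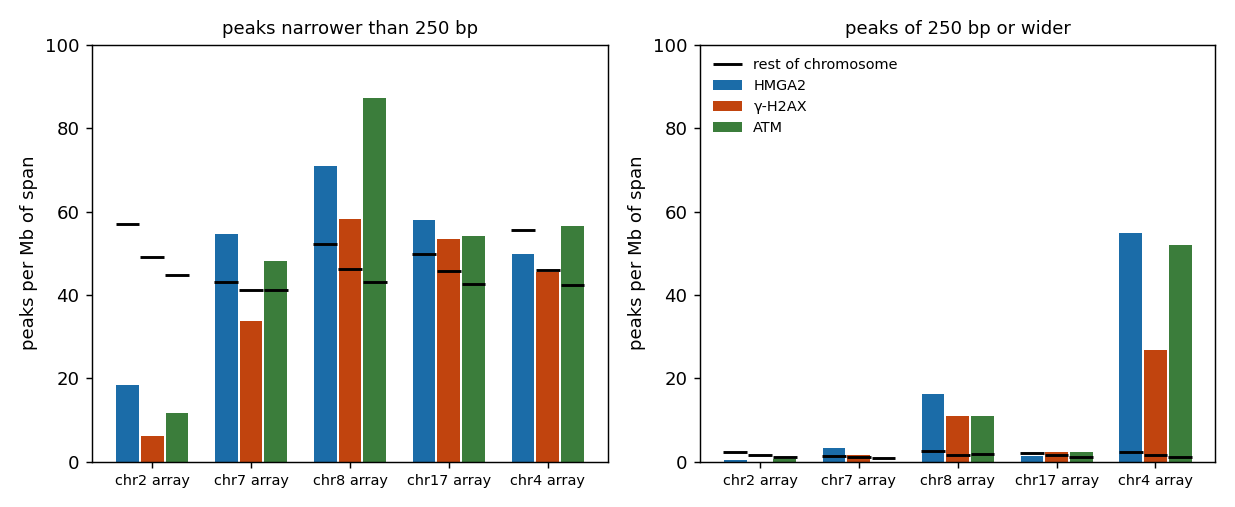
Peaks per Mb in the spans of the 5 arrays (bars, 1 colour per antibody), split into peaks narrower than 250 bp (left) and of 250 bp or more (right), with the rest of the same chromosome as black lines. In the chromosome 4 array the narrow peaks lie near the lines while the wide ones reach 54.9, 26.8 and 52 per Mb, and in the chromosome 2 array both kinds lie below.

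Within the chromosome 4 array, Zfp993 and Zfp978 had the most peaks of all members. The annotated body of Zfp993 is 479 kb and its locus held 49 HMGA2, 34 γ-H2AX and 56 ATM peaks, or 10, 6.96 and 11.5 per 100 kb. Zfp978 spans 267 kb with 37, 20 and 33 peaks, or 13.4, 7.22 and 11.9 per 100 kb. Both spans overlap other members, so some of these peaks were counted for more than 1 gene. Per length Zfp990, at 27.5 kb, was the densest of the array with 26.7, 29.3 and 29.3 peaks per 100 kb (10, 11 and 11 peaks). Zfp991 followed for HMGA2 with 22.2 per 100 kb (13 peaks), and it lies wholly inside Zfp978. The array was not uniform: Zfp933, at its far end, had 3 HMGA2 peaks, 2 γ-H2AX peaks and no ATM peak, and was the only one of the 14 members without all 3 antibodies in its locus.

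The chromosome 2 array was the reverse. It spans chr2:175372034-178078425 (2.71 Mb), from Zfp968 to Zfp931, and 9 of its 26 protein-coding genes are members. It held 51 HMGA2, 17 γ-H2AX and 34 ATM peaks, or 18.8, 6.26 and 12.5 per Mb, against 59.5, 50.8 and 46 on the rest of chromosome 2, with ratios of 0.315, 0.123 and 0.272. The bin from 176 to 177 Mb, in which Zfp967 and Zfp973 lie, had 6 HMGA2, 1 γ-H2AX and 4 ATM peaks. For each antibody that was the lowest count of the 179 bins on the chromosome that hold peaks, whose medians were 58, 49 and 47. A stretch of 440 kb, chr2:175372034-175812436, had no peak of any antibody and holds Zfp968 and Zfp965.

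**Figure D5:**
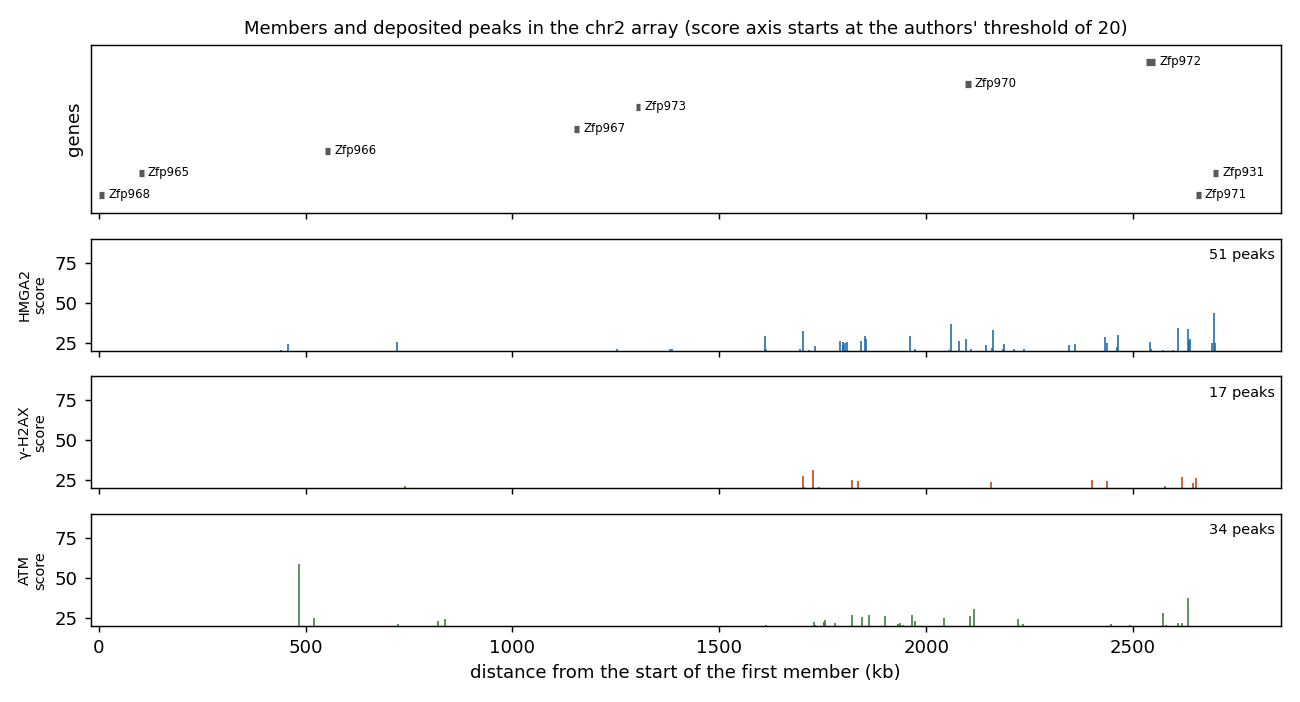
Members of the chromosome 2 array (grey bars, x axis in kb from the first member's start) and the score of every deposited peak in the span (vertical lines from the threshold of 20, 1 panel per antibody). The span holds 51 HMGA2, 17 γ-H2AX and 34 ATM peaks, most of them in its second part, and no peak in its first 440 kb.

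Among the 9 members of this array, Zfp965, Zfp966, Zfp967, Zfp968 and Zfp973 had no peak in the locus. Zfp970 had 2 HMGA2 peaks and 1 ATM peak, Zfp972 had 2 HMGA2 peaks, Zfp971 had the 1 γ-H2AX peak at its promoter, and Zfp931 had 3 HMGA2 peaks and 1 γ-H2AX peak. No member of the array had all 3 antibodies. The members without a peak include the closest copies. Zfp966 and Zfp967 share an identical promoter and an annotated length of 12.8 kb, and Zfp968 and Zfp973 differ in their promoters by 1 edit. Reads from identical stretches cannot be placed uniquely, the handling of multiply aligned reads is not given in the sources used here, and its part in the missing peaks was not tested. Less signal and less mappable sequence cannot be told apart from a peak list.

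Members with a promoter entry were also divided by how close a copy the promoter had. The 14 members whose promoter was at least 90% identical to that of another gene had 58.8 HMGA2 peaks per Mb of locus (37.7 to 87.4), 31.8 γ-H2AX peaks (16.9 to 54.4) and 39.2 ATM peaks (22.4 to 63.6). The 26 members at 60 to 90% had 88.1 (71.6 to 107), 73.9 (58.8 to 91.6) and 79.2 (63.6 to 97.5). The 15 members with no other promoter at 60% had 80.6 (63.1 to 102), 63.8 (48.3 to 82.7) and 87.3 (69 to 109). Density did not fall steadily with likeness, since the middle class was above the class without a copy for HMGA2 and γ-H2AX. The first class was lowest for each antibody. Its intervals stand apart from those of the class without a copy for ATM and overlap them for HMGA2 and γ-H2AX. Against the middle class they stand apart for γ-H2AX, meet at 63.6 for ATM and overlap for HMGA2. In the class without a copy, Zfp993 alone held 49 of 72 HMGA2 peaks, 34 of 57 γ-H2AX peaks and 56 of 78 ATM peaks. The density of that class, and its ATM separation from the first class, thus rest largely on 1 locus of the chromosome 4 array. Of the 14 members in the first class, 8 stand in the chromosome 2 array: Zfp931, Zfp965, Zfp966, Zfp967, Zfp968, Zfp970, Zfp971 and Zfp973. The 6 others (Zfp937, Zfp943, Zfp951, Zfp959, Zfp977 and Zfp979) had 82.6 HMGA2 peaks per Mb (49.7 to 129), 47.8 γ-H2AX peaks (23.9 to 85.6) and 65.2 ATM peaks (36.5 to 108). These intervals overlap those of both other classes for each antibody.

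The other arrays lay closer to their chromosomes, the one on chromosome 8 least so. On chromosome 17, chr17:21565816-22867309 holds 10 members, from Zfp948 to Zfp945, and its peak density relative to the rest of the chromosome was 1.15 (HMGA2), 1.17 (γ-H2AX) and 1.29 (ATM). All 10 had peaks of all 3 antibodies in the locus, although the numbers were small, from 1 to 6 peaks of each antibody per member. The chromosome 7 array (chr7:42579397-43192109, Zfp977 to Zfp936) had ratios of 1.3, 0.835 and 1.14, and Zfp936 accounted for 10, 6 and 12 of the 16, 11 and 16 peaks in its 4 member loci. On chromosome 8 (chr8:69209018-69749962) the ratios were 1.59, 1.44 and 2.18, and the bin from 69 to 70 Mb ranked 2 among 127 for ATM with 75 peaks. Little of that fell in members: their 3 loci held 5 peaks of each antibody, and all 5 ATM peaks were at Zfp930. Zfp963 and Zfp964 had no ATM peak. Over the chromosome 8 span, 18.8%, 15.8% and 11.1% of peaks were 250 bp or wider (9, 6 and 6 peaks). On the rest of that chromosome it was 4.88%, 3.48% and 3.98%. A score of 30 or more was reached by 22.9%, 18.4% and 14.8%, against 11.5%, 9.7% and 9.87%. Wide and higher-scoring peaks were thus not limited to the chromosome 4 array.

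Scores give the second measure at these genes. In member loci the HMGA2 peaks had a median score of 25.2, the γ-H2AX peaks of 23.6 and the ATM peaks of 24.2, against 23.8, 23.6 and 23.6 over the whole lists. A score of 30 or more was reached by 24.8% of the 246 HMGA2 peaks, 17.1% of the 193 γ-H2AX peaks and 17.2% of the 238 ATM peaks, against 11.6%, 10.3% and 10.2% of the lists. Outside the chromosome 4 array these shares were 15%, 14.6% and 8.33%, so the ATM share there was no higher than in the list. Even the highest scores at members were modest, since the lists reach 641, 670 and 494.

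For HMGA2 the highest peak was in the body of Zfp982 (chr4:147497634-147498169, score 85.8). Zfp985 came next, with peaks of 83.3 across its annotated end (chr4:147585132-147585729) and 82.1 just beyond it (chr4:147585805-147586787), and a peak of 64.7 in its body that was 1174 bp wide. These are the highest HMGA2 values in the array. Zfp936 on chromosome 7 had a peak of 71.8 (chr7:43165928-43166381) and one of 53.8, both in the body. In Zfp930 on chromosome 8 the highest was 61.3 (chr8:69216253-69216570). Zfp981 and Zfp993, whose spans overlap, share the peak at chr4:146538991-146539797 with a score of 55.8. So 2 of these 6 members, Zfp936 and Zfp930, stand outside the chromosome 4 array.

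The 5 members with the highest γ-H2AX peaks were spread more widely. Zfp993 had 48.2 (chr4:146971234-146971817), Zfp957 had 47 beyond its end (chr14:79210439-79210646) and Zfp990 had 46.9 (chr4:145508909-145509290). The peak of 45 at the Zfp932 start is the one shown over its promoter, and Zfp950 had 43.6 at 4.82 kb from its end (chr19:61048926-61049018). Of these 5, Zfp957 and Zfp950 are isolated genes, so a high γ-H2AX score was not limited to arrays. For ATM the highest were 51.1 in Zfp993 (chr4:146549085-146549171), 49.7 in the stretch shared by Zfp981 and Zfp993 (chr4:146513522-146513933), 48.2 in Zfp985 (chr4:147563801-147564186), 47.5 in Zfp990 (chr4:145524952-145525228) and 45.3 near the start of Zfp994 on chromosome 17 (chr17:22227800-22228210). All of these but Zfp994 stand in the chromosome 4 array.

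Several antibodies met at the ends of the same members. Peaks of 2 or more antibodies lay within 1 kb of an end at 15 members (24.2%, beside 11.2% of all genes), and of all 3 at 2 members, Zfp980 and Zfp983 (3.23%, beside 1.12%). Of the 15, 8 stand in the chromosome 4 array, and outside it 7 of 48 remained (14.6%), nearer the share of all genes. By pairs, HMGA2 and γ-H2AX met at 7 members (11.3%, beside 5.35%), HMGA2 and ATM at 6 (9.68%, beside 3.59%), and γ-H2AX and ATM at 6 (9.68%, beside 4.5%). Within 5 kb of an end all 3 antibodies were present at 22 members (35.5%, beside 20.8%). These are joint counts of separate lists, and each end can hold the peaks at different places.

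Zfp983 on chromosome 17 had an HMGA2 peak of 25.7 (chr17:21650094-21650233) and an ATM peak of 23.8 (chr17:21650308-21650458) before its start, 339 and 114 bases away, and a γ-H2AX peak of 25.4 across its end. The HMGA2 and ATM peaks stood side by side without overlap. Zfp980 on chromosome 4 was arranged the other way round, with γ-H2AX (20.5) before its start and HMGA2 (35.3) and ATM (21.6 and 21.1) at its end. All of the peaks at the ends of these genes but the HMGA2 peak of Zfp980 scored under 30.

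Among the members with HMGA2 and γ-H2AX, Zfp932 had them at opposite ends: γ-H2AX (45) at the start and HMGA2 (31, chr5:110012142-110012379) across the end. Zfp946 had both at its start, HMGA2 (38.4) 901 bases and γ-H2AX (23.8) 330 bases upstream, with a further γ-H2AX peak (23.6) inside the gene. Zfp985 had both at its end. Zfp960, with 9 HMGA2 peaks in its locus (25.3 per 100 kb), had HMGA2 (20.9) and γ-H2AX (22.9) at its right end, and in Zfp992 HMGA2 (33) and γ-H2AX (39.2) lay at opposite ends.

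Zfp974 and Zfp993 had HMGA2 and ATM together at the start. At Zfp974 the HMGA2 peak (35.3) lay 894 bases and the ATM peak (25.8) 496 bases upstream. At Zfp993 the start had 3 HMGA2 peaks (22.4, 23.3 and 26.6) and 2 ATM peaks (49.5 and 49.7), so ATM had the higher scores. Zfp979 (HMGA2 30.6, ATM 22) and Zfp991 (HMGA2 22.1 and 23.1, ATM 32.7) had the 2 antibodies at opposite ends. With γ-H2AX and ATM, Zfp954 had both at both ends (γ-H2AX 23.4 and ATM 23.1 at the start, 24.1 and 20.5 at the end). Zfp930 had both at its left end and Zfp984 both at its start, while Zfp990 had them at opposite ends (20.4 and 20.6).

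Direct overlap by at least 1 base was counted next, peak against peak. In member loci 16 of 246 HMGA2 peaks (6.5%) overlapped a γ-H2AX peak, and 17 of 193 γ-H2AX peaks (8.81%) an HMGA2 peak, beside 2.67% and 3.26% over the whole lists. With ATM, 24 HMGA2 peaks overlapped (9.76%, and 10.1% of the ATM peaks), beside 2.42% and 3.08%. Of the γ-H2AX peaks 19 overlapped an ATM peak (9.84%, and 7.56% of the ATM peaks), beside 2.68% and 2.79%. Nearly all of this was in the chromosome 4 array, where 10.1% of HMGA2 peaks overlapped γ-H2AX, 15.1% overlapped ATM, and 17.3% of γ-H2AX peaks overlapped ATM. Outside it the shares were 1.87% (2 of 107), 2.8% (3 of 107) and 1.12% (1 of 89), close to the lists or below. Wide and dense peaks overlap more often, and the array's peaks were both, so the overlap there is not corrected for width or density.

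The overlaps outside the chromosome 4 array can be named in full. Zfp957 had HMGA2 (21.1) and γ-H2AX (47) sharing 130 bases beyond its end, and Zfp961 had an HMGA2 peak (22.3, chr8:71967781-71967919) wholly under a γ-H2AX peak (20.3) in its body. HMGA2 and ATM met at Zfp944 (35.2 at chr17:22336653-22336834 and 25.8 at chr17:22336587-22336791), Zfp961 (23.1 and 22.1, 60 bases) and Zfp983 (30.5 and 20.8, 63 bases). At Zfp930, γ-H2AX (22.8, chr8:69208242-69208432) and ATM (28.1, chr8:69208242-69208369) shared 128 bases, the whole ATM peak. Inside the chromosome 4 array the HMGA2 peaks at the end of Zfp985 overlapped γ-H2AX peaks of 22.4 and 33.1 by 274 and 540 bases, and its body peak of 64.7 overlapped ATM (48.2) by 386 bases. In Zfp984 the γ-H2AX peak near the start (22.2) shared 345 bases with ATM (44.2). Zfp990 had 4 overlaps of HMGA2 with γ-H2AX and 2 of γ-H2AX with ATM. The 3 antibodies overlapped one another at 2 places, both inside the span of Zfp993: chr4:146620376-146620585 (210 bases, scores 26.5, 21.6 and 26.6) and chr4:146905936-146906056 (121 bases, scores 33, 35.3 and 21.9).

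Peaks were then assigned to the start or the end for the 55 members whose strand is given by a promoter entry. Both are outer edges of the annotated span, which can differ from the RefSeq start behind a promoter. The HMGA2 start peak of Zfp981 (chr4:146502771-146503078) lay at the span edge, away from its promoter (chr4:146514670-146514969). The γ-H2AX start peaks of Zfp976 and Zfp984 and the ATM start peak of Zfp984 also lay at the span edge, outside the promoter. A different ATM peak covered part of the Zfp984 promoter and was not counted as a start peak. At Zfp948 a γ-H2AX peak (chr17:21567032-21567201) just past the promoter (chr17:21566728-21567027) was not counted as a start peak. At the start, HMGA2 peaks lay within 1 kb in 9 members (16.4%, beside 9.21% of the 17492 genes with a strand), γ-H2AX in 10 (18.2%, beside 15.9%) and ATM in 7 (12.7%, beside 9.02%). At the end the counts were 7 (12.7%, beside 9.7%), 5 (9.09%, beside 9.86%) and 3 (5.45%, beside 8.47%). Each antibody thus had more members at the start than at the end, and for γ-H2AX and ATM so did all genes. The start members for γ-H2AX were Zfp932, Zfp933, Zfp940, Zfp946, Zfp950, Zfp954, Zfp971, Zfp976, Zfp980 and Zfp984. Those for ATM were Zfp947, Zfp954, Zfp974, Zfp979, Zfp983, Zfp984 and Zfp993, so Zfp954 and Zfp984 were in both.

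The authors also deposited lists of γ-H2AX and ATM promoter regions in the Hmga2 wt cells; how they were drawn up is not given in the sources used here. Regions of the γ-H2AX list lay within 1 kb of an end of 7 members (11.3%, beside 9.03% of all genes and 12.8% of the other Zfp genes): Zfp930, Zfp932, Zfp933, Zfp946, Zfp954, Zfp971 and Zfp980. Regions of the ATM list lay there for 4 members (6.45%, beside 3.44% and 3.61%): Zfp930, Zfp954, Zfp974 and Zfp983. Zfp930 and Zfp954 were in both. Every one of these 9 genes also had a peak of the same antibody within 1 kb, and the lists were made from the same libraries, so they add no independent count. Anywhere in the locus the γ-H2AX list had a region at 9 members (14.5%, beside 12.4% of all genes), which adds Zfp948 and Zfp984. The ATM list had one at 7 members (11.3%, beside 4.95%), which adds Zfp978, Zfp984 and Zfp991, so Zfp984 was in both at this distance.

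The promoters were compared for base composition and short motifs. The median A+T content of the 63 member promoters was 50% (30.7 to 62%), beside 43.7% over 21263 protein-coding promoters. In the chromosome 4 array it was 56.6% and in the chromosome 2 array 51.7%, so promoters of the peak-rich and of the peak-poor array were both above the median of all promoters, while chromosome 17 lay at 43.5%. CCAAT, searched on both strands, was in 49 of 63 member promoters (77.8%, beside 38.2% of all), including 9 of 9 in the chromosome 2 array. Of all words of 10 bases that contain CCAAT, TAGCCAATCA was in the most member promoters, 15 of 63 (23.8%, beside 0.682% of all), and was picked for that reason. It was in 8 of the 9 promoters of the chromosome 2 array, all but that of Zfp931, and in none of the 12 of the chromosome 4 array. The others with it were Zfp935, Zfp937, Zfp938, Zfp959, Zfp963 and Zfp964. AATT, the short AT-rich word, was in 35 of 63 (55.6%, beside 45.8%). A match is a description of the letters in these windows.

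Across the 62 members, loci dense for one antibody tended to be dense for the others. Spearman's rho of peaks per 100 kb was 0.534 for HMGA2 and γ-H2AX, 0.506 for HMGA2 and ATM, and 0.505 for γ-H2AX and ATM. Over the 48 members outside the chromosome 4 array it was 0.455, 0.336 and 0.367. The loci share position and sequence, and all 3 antibodies share the same mappable bases, so these values are a description without a test.

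The partner proteins of the KRAB zinc-finger family were read from the same lists, with 16 genes taken as the silencing machinery. An HMGA2 peak within 1 kb of an end was found at 1 of them (6.25%, beside 17.9% of all genes), Morc3, which codes for an ATPase of H3K9-marked chromatin, and Morc3 was also the one with all 3 antibodies. γ-H2AX was at 7 (43.8%, beside 23.3%): Atrx, Cbx1, Cbx5, Hdac1, Hdac2, Morc3 and Setdb1. Of these, Setdb1 is the H3K9 methyltransferase, Cbx1 and Cbx5 code for HP1 proteins, and Hdac1 and Hdac2 code for histone deacetylases. ATM was at 4 (25%, beside 16.1%): Atrx, Cbx3, Hdac1 and Morc3. Trim28, Atf7ip, Chd3, Chd4, Daxx, Dnmt1, Smarcad1 and Uhrf1 had no peak of any antibody there, and neither had 55% of all genes. Over all genes the share was highest for γ-H2AX too. With 16 genes in the list, each gene makes up 6.25% of it.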

How the data were processed

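Sequencing was of immunoprecipitated chromatin. Per the submitters' processing notes, Trimmomatic, Bowtie2, SAMtools, MACS and HOMER were used on build mm10; versions, the control library and the handling of multiply aligned reads are not given in the sources used here. Per the labels, peaks were called with MACS14, without a model, at p 0.01 and a shift size of 30 bp. The deposited peak score is 10 times the negative log10 of p, as the authors' caller gave it. The deposited promoter regions hold coordinates (start and end, other than a measured value) and no score.

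From these lists, peaks overlapping a window by at least 1 base were counted with Python 3.11.15, pandas 2.3.3 and numpy 2.4.6 (counts checked with bedtools 2.31.1 on simulated data), exact Poisson intervals came from scipy 1.17.1, promoter edits from edlib 1.3.9.post1. Intervals cover counting error only. Gene starts and ends came from the RefSeq table of GRCm38.p6, without exons or UTRs, so positions are given as body or flank. A peak in overlapping genes counts for each gene, and once in densities.

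The rule for members uses names alone, but members and lists were taken up with earlier results of these data known. All members could be named. Positions or scores are given for the 5 members with the highest-scoring peak of each antibody, those with 2 or 3 antibodies at an end, those in the promoter lists, those with overlapping peaks and the 5 with the most peaks; within dense loci only the peaks that met the rule are given.

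Score, window, neighbour distance and locus were varied; leaving out arrays or long spans and filtering by width, as well as the copies outside the chromosome 2 array, were added after seeing the data. The deposited histogram over all HMGA2 peaks and the plotting configurations were not used.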

Additional observations from a re-analysis of the deposited data

How the results depend on the processing

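Of 100 alternative values, 61 stayed within 1.5 times the count or within the interval of the reported value, 37 moved beyond it and 2 reversed. With a score of 30 or more, members with an end peak within 1 kb fell to 8 (HMGA2), 4 (γ-H2AX) and 4 (ATM), those with a body peak to 22, 17 and 13 (beside 17.2%, 17.5% and 14.6% of all genes), those with a peak within 5 kb to 14, 13 and 10 (beside 9.43%, 11% and 7.33%), and those with all 3 within 1 kb to 0. A window of 500 bp gave 9 members for HMGA2 (9.8% of all genes), and one of 2 kb gave 27 for HMGA2 (30.5%) and 26 for ATM (28.3%). All 3 antibodies within 5 kb were at 22 members.

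Peak density at that score was 24.4, 10.8 and 16.4 per Mb for clustered members (HMGA2, γ-H2AX, ATM) and 13, 14.4 and 8.66 for single ones. A neighbour distance of 250 kb gave single members 48.5 for HMGA2 and 39.7 for ATM, with intervals apart from those of clustered members. With neighbours sought among Zfp900 to Zfp999 alone, the intervals overlapped for both antibodies. In the arrays that score gave ratios of 4.43, 2.3 and 5.92 on chromosome 4 and 0.0698 for γ-H2AX on chromosome 2.

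These alternatives were chosen after seeing the data. Without the chromosome 4 array 48 members remained. Within 1 kb, 10 of them had HMGA2 (beside 17.9% of all genes) and 7 had ATM (beside 16.1%). All 3 antibodies were there at 1 (beside 1.12%) and 2 or more at 7 (beside 11.2%). ATM lay within 5 kb at 25 of the 48, about the share of all genes (52.3%). Without the chromosome 2 array, members with a promoter copy had 65.2 ATM peaks per Mb. Without the chromosome 4 array, clustered density fell to 70.9, 55.1 and 52.2, and single density for ATM to 50.7. With peaks narrower than 250 bp, the chromosome 4 ratios were 0.898 for HMGA2 and 0.988 for γ-H2AX, both reversed, and 1.33 for ATM. The array's peaks were wider and more often scored 30 or more, so a filter on width is not independent of the excess, and the cause was not tested.

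No paired analysis was possible because each antibody had 1 library per genotype. Read depth is not given. A further limit is that 7 members had no promoter entry.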
